A study of Mus musculus with 24 samples.

Results

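Kupffer cells are the resident macrophages of the liver, and 10 RNAs that mark them or macrophages in general were followed through 24 liver libraries. The markers were chosen by symbol: Clec4f, Vsig4, Cd5l, Adgre1, Marco, C1qa, C1qb, C1qc, Cd68 and Csf1r. All 10 were among the 15161 genes counted, and all 10 passed the filter on low counts that left 13441 genes for testing. The livers were those of male mice of the inbred strain C57BL6/J, aged 4 months. The diets differed in methionine content and protein source. Elemental control and elemental MR (methionine-restricted) diets supplied free amino acids, with 0.86% and 0.17% methionine. Casein control and casein MR diets supplied casein, the main milk protein, at the same 0.86% and 0.17%, and the casein of the MR diet was oxidised. The labels do not say that the control casein was oxidised, so methionine content and oxidation cannot be told apart within the casein comparison. Each group held 6 libraries, named here by diet (E for elemental, C for casein), C or MR and their own number. The labels do not state that these are separate mice, so the p-values reflect the spread among these libraries, which may be technical.

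Kupffer cells line the liver sinusoids, where they take up bacteria, aged red cells and debris from portal blood through scavenger, lectin and complement receptors. They depend on signalling through the CSF1 receptor, and their identity is set by transcription factors such as PU.1 and LXR alpha. Macrophages are the main source of the C1q chains, which open the classical complement pathway, whereas most other circulating complement proteins are made by hepatocytes.

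Upstream sequences of some markers are shown first. Whether they bear on how the markers' RNAs varied across libraries was not tested. C1qb and C1qc are neighbours in the RefSeq gene order, and Clec4f, Marco and Vsig4 are receptors of Kupffer cells. Each is the 250 bases before the annotated start, from RefSeq on GRCm38.p6, read 5′ to 3′ in the direction of the gene. Capitals mark the core of PU.1 sites, GAGGAA, or TTCCTC where it lies on the other strand. The windows are chr4:136886201-136886450 for C1qb, chr4:136892915-136893164 for C1qc, chr6:83656117-83656366 for Clec4f, chr1:120505025-120505274 for Marco and chrX:96293439-96293688 for Vsig4, all on the minus strand.
C1qb: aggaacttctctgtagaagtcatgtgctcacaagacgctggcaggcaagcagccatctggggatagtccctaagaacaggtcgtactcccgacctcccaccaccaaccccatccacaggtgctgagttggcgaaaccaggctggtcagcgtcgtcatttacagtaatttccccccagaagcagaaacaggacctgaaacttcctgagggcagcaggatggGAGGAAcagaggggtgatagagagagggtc
C1qc: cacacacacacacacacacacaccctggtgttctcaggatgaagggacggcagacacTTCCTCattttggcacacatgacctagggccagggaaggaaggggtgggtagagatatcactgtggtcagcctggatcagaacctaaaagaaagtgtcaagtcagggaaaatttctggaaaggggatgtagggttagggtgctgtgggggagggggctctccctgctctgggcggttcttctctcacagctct
Clec4f: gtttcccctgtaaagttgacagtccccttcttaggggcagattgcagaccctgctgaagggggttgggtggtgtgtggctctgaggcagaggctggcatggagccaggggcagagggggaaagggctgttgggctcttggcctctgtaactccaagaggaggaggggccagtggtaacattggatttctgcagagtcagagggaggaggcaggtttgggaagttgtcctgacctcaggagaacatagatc
Marco: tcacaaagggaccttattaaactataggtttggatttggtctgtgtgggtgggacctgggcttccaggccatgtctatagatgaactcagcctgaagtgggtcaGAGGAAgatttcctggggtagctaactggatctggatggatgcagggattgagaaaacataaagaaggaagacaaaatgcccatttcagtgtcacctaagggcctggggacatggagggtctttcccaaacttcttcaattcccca
Vsig4: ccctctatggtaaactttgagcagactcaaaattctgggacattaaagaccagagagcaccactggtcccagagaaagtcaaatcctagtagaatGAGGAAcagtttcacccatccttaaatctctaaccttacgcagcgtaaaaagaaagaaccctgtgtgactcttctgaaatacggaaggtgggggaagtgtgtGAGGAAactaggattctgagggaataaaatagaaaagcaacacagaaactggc
Windows of 7 markers were in the RefSeq table, those of Cd5l and Cd68 being the other 2. GAGGAA was found on either strand in 6 of the 7, against 23.3% of 32851 windows of the same length. Clec4f was the one without it, and Vsig4 held 2 copies, 155 to 150 and 53 to 48 bases before the start. The AP-1 sequence TGANTCA was found in Cd68 alone, against 6.75%. The RBPJ sequence GTGGGAA (5.42% of all windows) and the E-box CACGTG (6.02%) were found in 0 of 7. Both strands were searched for each, and no match of 1 motif overlapped another. A match describes these letters only and is not evidence of binding.

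Library totals ran from 13.5 to 20.8 M reads. Reads of a marker in a library ran from 37 for Marco to 3243 for Csf1r. Values are CPM, read counts brought to the same library size after TMM scaling, which sets the bulk of genes equal. The label of liver was checked on 12 hepatocyte markers, which summed to between 81370 and 146700 CPM in the libraries. In a bulk sample, fewer macrophages and less RNA per macrophage cannot be told apart. Per kilobase of annotated exon (GENCODE, all exons of a gene joined), C1qa, C1qb and Cd5l stood highest, with medians over 24 libraries of 68.1 CPM per kb for C1qa, 62.5 for C1qb and 55.8 for Cd5l. Vsig4 (28.5), C1qc (28.4) and Clec4f (25.8) followed, then Csf1r (17.5), Cd68 (9.53), Adgre1 (5.16) and Marco (3.39). The ranges over libraries of C1qa, C1qb and Cd5l overlapped, as did those of Vsig4, C1qc and Clec4f, and those of Adgre1 and Marco, so the order within each of these sets lies inside the spread. Ranges also overlapped between neighbouring sets, as for Cd5l (33 to 84.2) and Vsig4 (19.8 to 47.2). The same held for Clec4f (17.9 to 43.4) and Csf1r (12.5 to 29). On this scale C1qb stood at 0.822 to 1.12 of C1qa in single libraries, and C1qc at 0.38 to 0.51 of C1qa.

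Clec4f, a lectin receptor that in mice is largely confined to Kupffer cells, ranged in elemental control from 54.6 to 82.24 CPM (median 65.71) and in elemental MR from 52.7 to 72.51 (65.57). In casein control it ranged from 44.28 to 68.35 (60.94), and in casein MR from 54.21 to 107.3 (61.6). The 4 groups overlapped over most of their range, and the top value belonged to C_MR_3431. Without that library casein MR ended at 66.53 CPM, inside the range of casein control. Vsig4, a receptor for complement C3 fragments, ranged from 33.29 to 49.78 CPM (median 45.53) in elemental control and from 29.36 to 51.44 (42.18) in elemental MR. It ranged from 32.3 to 54.47 (41.98) in casein control and from 36.11 to 69.97 (41.63) in casein MR, or to 46.31 without C_MR_3431. Its medians in the 4 groups lay closer together than the libraries of any 1 group.

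Marco, a scavenger receptor for bacteria and particles, was the most scattered marker. Its levels ran from 3.907 to 19.34 CPM (median 7.894) in elemental control, from 4.003 to 11.87 (6.727) in elemental MR, from 2.995 to 23.23 (5.076) in casein control and from 4.7 to 18.97 (6.673) in casein MR. The highest library of all, C_C_3436, stood 7.75-fold above the lowest, C_C_3413, and both were casein controls. The SD of Marco's log2 CPM within groups was 0.81, against 0.21 (C1qb) to 0.33 (Cd5l) for the other 9 markers and a median of 0.22 over all genes tested. Cd5l, a secreted scavenger protein that circulates with IgM, ranged from 83.6 to 155.1 CPM (median 100.4) in elemental control, from 67.2 to 134.9 (115) in elemental MR, from 75.45 to 171.4 (109.5) in casein control and from 109.4 to 163.7 (125) in casein MR. Its top library was also C_C_3436.

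**Figure D1:**
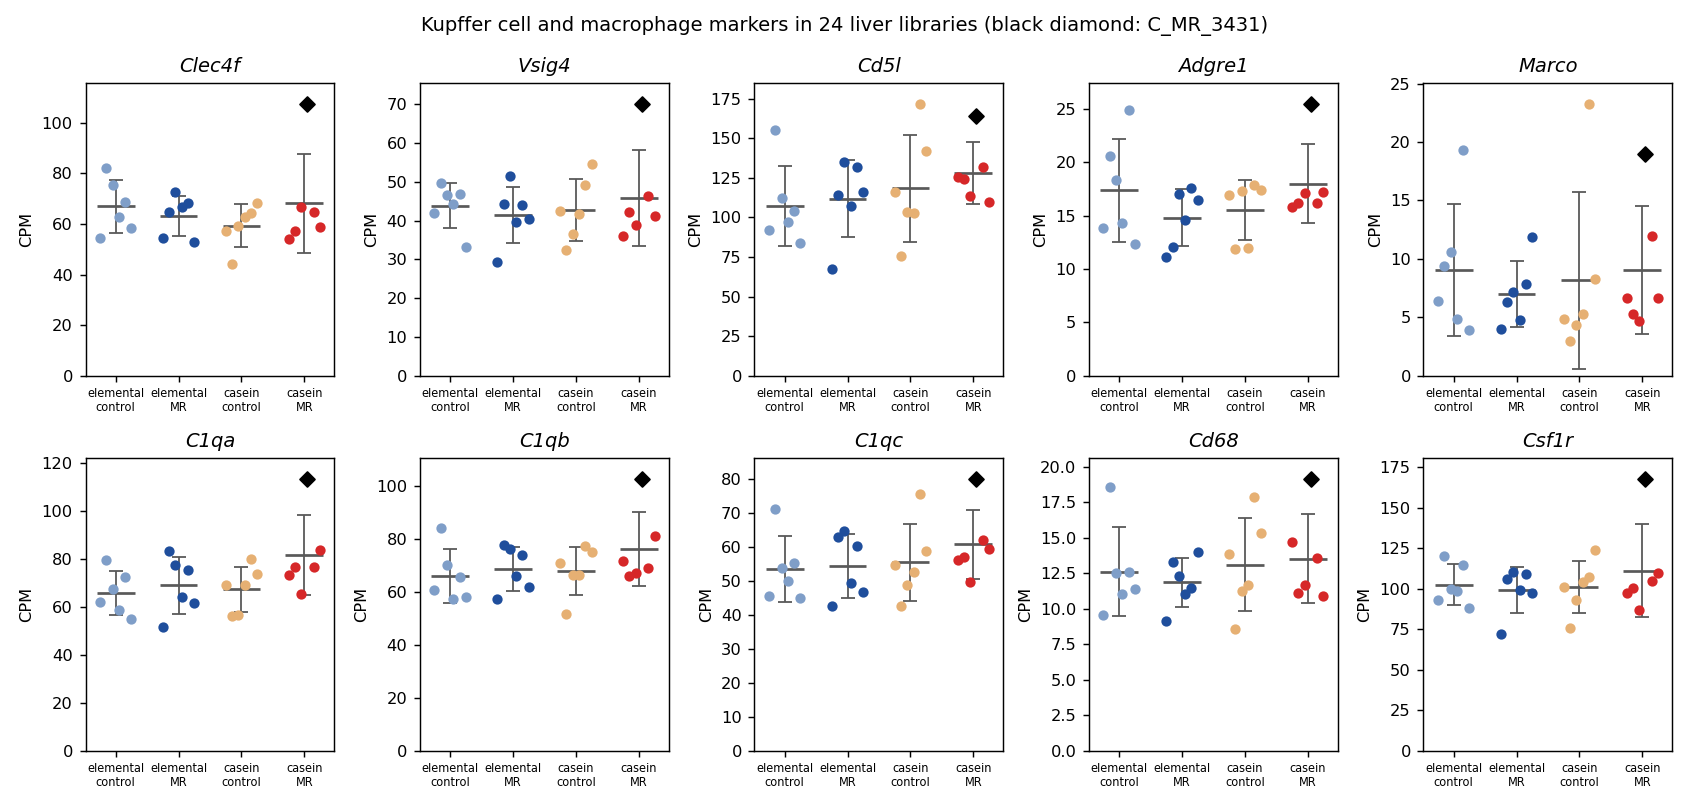
CPM of each marker (y axes, from 0) in the 4 diet groups (x axes), 1 point per library, with the group mean and SD (n = 6) in grey and C_MR_3431 as a black diamond. The diamond is the top point of casein MR in all 10 panels, and the groups overlap in each.

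Among the general macrophage markers, Csf1r, the receptor for CSF1 and IL34, ranged from 87.83 to 120.4 CPM (median 99.23) in elemental control and from 72.12 to 110.5 (102.6) in elemental MR. It ranged from 76.02 to 123.9 (102.6) in casein control and from 86.8 to 167.6 (102.7) in casein MR, where 5 libraries ended at 109.9 and C_MR_3431 stood alone above. Adgre1, which encodes the F4/80 antigen, ranged from 12.36 to 24.91 CPM (median 16.31) in elemental control, from 11.16 to 17.58 (15.52) in elemental MR, from 11.9 to 17.9 (17.09) in casein control and from 15.79 to 25.43 (16.64) in casein MR. The 5 casein MR libraries besides C_MR_3431 lay between 15.79 and 17.2. Cd68, a lysosomal glycoprotein of phagocytes, ranged from 9.552 to 18.58 CPM (median 11.95), from 9.159 to 13.97 (11.88), from 8.581 to 17.9 (12.77) and from 10.92 to 19.12 (12.63) in the same order of groups.

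C1qa, C1qb and C1qc encode the 3 chains of C1q. C1qa ranged from 54.86 to 79.3 CPM (median 64.7) in elemental control, from 51.62 to 83.12 (69.78) in elemental MR, from 56.1 to 79.78 (69.01) in casein control and from 65.19 to 113.2 (76.68) in casein MR. C1qb ranged from 57.08 to 83.81 (63.15), from 57.26 to 77.52 (69.81), from 51.41 to 77.15 (68.54) and from 65.93 to 102.4 (70.19). C1qc ranged from 44.96 to 71.12 (51.73), from 42.58 to 64.72 (54.74), from 42.5 to 75.56 (53.53) and from 49.75 to 79.85 (58.22). The casein MR medians were the highest of the 4 for each chain, by less than the range within any group. Without C_MR_3431 the casein MR median of C1qb was 68.97 CPM, below elemental MR, and those of C1qa (76.66) and C1qc (57.09) were still the highest.

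Methionine restriction with free amino acids moved 0 of the 10 markers past an adjusted p under 0.05 (edgeR quasi-likelihood test, Benjamini-Hochberg over all genes), in a comparison that called 13.4% of all genes. The log2 fold changes ran from -0.37 ± 0.44 (SE) for Marco to 0.07 ± 0.12 for C1qa, with 4 above 0 and 6 below. Their median was -0.06, against -0.003 over all genes tested, and 0.03 without E_C_3417. The lowest adjusted p was 0.41, for Adgre1, at -0.23 ± 0.16, a value that was -0.10 without E_C_3428. At an unadjusted p under 0.05 the count was also 0 of 10, against 25.9% of all genes. Marco apart, the 95% intervals of the fold changes lay between 0.678 and 1.33-fold for the other 9 markers. Marco's ran from 0.413 to 1.45.

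With casein, restriction called 23.3% of all genes and again 0 of the 10 markers. All 10 log2 fold changes were above 0, from 0.04 ± 0.17 for Cd68 to 0.28 ± 0.12 for C1qa, with a median of 0.15 against 0.01 over all genes. C1qa had the lowest adjusted p, 0.118 by edgeR, at a 1.21-fold higher level with a 95% interval from 1.01 to 1.45. At an unadjusted p under 0.05 the count was 1 of 10, C1qa itself, against 33.2% of all genes. That count was 0 without C_C_3413, C_C_3421, C_MR_3431 or C_MR_3438, each left out alone, and 2 without C_C_3436. Clec4f (0.20 ± 0.14), Adgre1 (0.21 ± 0.16) and C1qb (0.17 ± 0.11) came next in size. Marco apart, intervals lay between 0.815 and 1.45-fold, and Marco's reached 2.07.

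These casein values moved most in size with C_MR_3431 and C_C_3436. Without C_MR_3431 the median log2 fold change of the markers was 0.03, with 6 above 0 and 4 below, and the comparison called 0 of the 10 and 21.7% of all genes. C1qa then stood at 0.16 ± 0.11 (edgeR adjusted p = 0.372), Clec4f at 0.02 ± 0.11, Adgre1 at 0.08 ± 0.16 and C1qb at 0.06 ± 0.10. Vsig4 changed from 0.10 ± 0.15 to -0.06 ± 0.13, Csf1r from 0.14 ± 0.13 to -0.02 ± 0.11, and Cd68 and Marco also went below 0. The median was 0.24 without C_C_3436 and 0.08 without C_C_3413, both with all casein MR libraries. Summed over the 10 markers, the libraries gave 545 ± 88.1 CPM on the elemental control diet and 541 ± 81.5 on the elemental MR diet (SD, n = 6 each). The sums were 549 ± 101 with control casein and 612 ± 128 with MR casein (SD, n = 6 each). The casein MR sum was 561 ± 28.8 without C_MR_3431 (SD, n = 5), and those 5 libraries lay between 520.7 and 596.8 CPM.

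**Figure D2:**
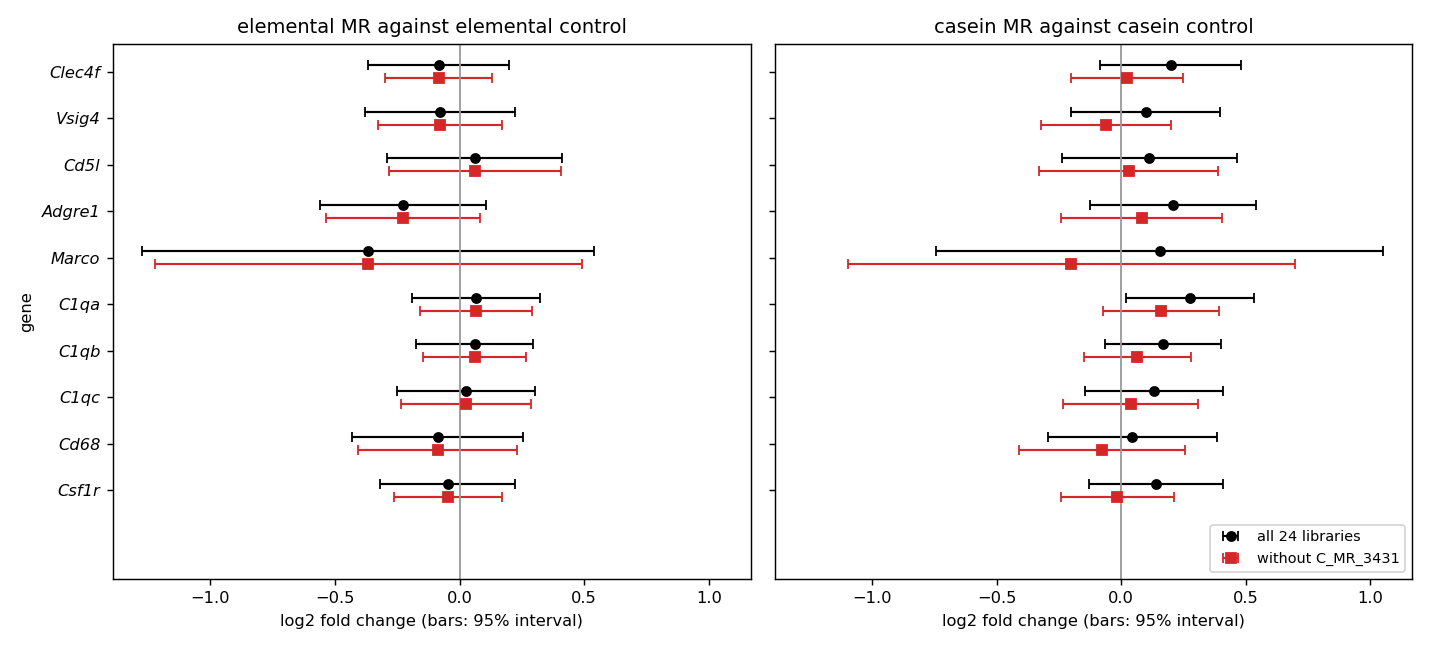
Log2 fold changes of the 10 markers (x axes, with 95% intervals) for MR against control with elemental amino acids (left) and with casein (right), from all 24 libraries (black circles) and without C_MR_3431 (red squares). On the right the circles lie above 0 and the squares scatter around it, and each interval but that of C1qa with all libraries includes 0.

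The effect of restriction did not differ detectably between the protein sources for any marker. This interaction called 0 of 10 markers and 2.34% of all genes, and at an unadjusted p under 0.05 it held 0 of 10 and 12.3%. The unadjusted count was 1 of 10 without E_C_3401, E_C_3427, E_C_3430, E_MR_3423 or C_C_3436, each left out alone. The lowest adjusted p by edgeR was 0.456, for Adgre1 (0.43 ± 0.23, casein minus elemental). The median of the 10 was 0.18, all above 0, and 0.02 with 9 above 0 without C_MR_3431, when 0 of 10 markers and 2.27% of all genes were called. Between the control diets 0 of 10 markers and 0.104% of all genes were called, and 0 of 10 and 11.7% had an unadjusted p under 0.05. Marker fold changes there split 5 above and 5 below 0, from -0.17 ± 0.14 (Clec4f) to 0.14 ± 0.17 (Cd5l). Between the MR diets 0 of 10 markers and 6.5% of all genes were called, and 0 of 10 and 19.1% had an unadjusted p under 0.05. All 10 were higher with casein there, by a median of 0.18, and by 0.06 with 8 above 0 without C_MR_3431, when 6.11% of all genes were called. The casein MR libraries enter all 3 comparisons in which the 10 markers lay above 0, so these directions are not separate observations. DESeq2's Wald test and limma-voom also called 0 of 10 markers in each of the 5 comparisons, and between the MR diets limma-voom gave 1 marker an unadjusted p under 0.05, as did edgeR without E_MR_3405, E_MR_3416, C_MR_3412 or C_MR_3425.

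C_MR_3431 was known to stand out when the markers were chosen, so its values are a description and no test. It was the highest of the 6 casein MR libraries for 10 of 10 markers, where 17.3% of all genes peaked, and the highest of all 24 for 8 of 10, against 4.62% of all genes. Cd5l and Marco peaked in C_C_3436. By Dixon's ratio at the 95% limit, C_MR_3431 stood apart on the high side of its group for 4 of 10 markers (Clec4f, Vsig4, Adgre1 and Csf1r), against 0.9% of all genes. Over the median of the other 5 casein MR libraries it was higher by 1.83-fold for Clec4f, 1.7-fold for Vsig4, 1.67-fold for Csf1r, 1.64-fold for Cd68 and 1.57-fold for Adgre1. The C1q chains were 1.4 to 1.49-fold higher, Cd5l 1.32-fold and Marco 2.85-fold. The median was 1.61-fold, against 0.991-fold over all genes tested.

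Many other macrophage genes were also higher in C_MR_3431. Of 18 genes of mononuclear phagocytes, 12 were more than 1.3-fold above the other 5 and 12 were the highest of all 24 libraries. Their median was 1.39-fold, with a range from 0.896 to 2.21. They included the lysozyme gene Lyz2, at 116.4 CPM against a median of 79.21. Of 15 further Kupffer cell genes 8 were more than 1.3-fold higher (median 1.32, range 0.967 to 2.34). The highest were the haem-degrading enzyme Hmox1 (15.4 against 6.592 CPM) and the haemoglobin scavenger receptor Cd163 (29.56 against 16.95 CPM). Nr1h3 (0.967-fold) and Hpgd (0.995-fold) were the lowest, and Msr1 and Mrc1 stood at 1.1-fold. Of 11 monocyte and recruited macrophage genes, 6 were more than 1.3-fold higher (median 1.38, range 0.635 to 3.83), while the list's sum stood at 0.863-fold. Of 9 cytokine genes 4 were more than 1.3-fold higher (median 1.24), and of 11 lymphocyte and neutrophil markers 4 (median 1.05). Over all genes tested, 11.9% were more than 1.3-fold higher. Markers of other cells moved too. All 6 erythroid markers were more than 1.3-fold higher, with a median of 4.7-fold and a sum of 7342 CPM, against 1306 to 3805 in the other casein MR libraries. Erythroid sums ran from 3093 to 7465 CPM in elemental control, from 1347 to 7284 in elemental MR and from 1992 to 3673 in casein control. Stellate cell and fibroblast markers were more than 1.3-fold higher for 12 of 14, summing to 678.2 CPM against 486.4 to 554.2 in the other casein MR libraries. Their sums ran from 545 to 636 CPM in elemental control, from 484.1 to 535.6 in elemental MR and from 550 to 614 in casein control. Cholangiocyte markers were more than 1.3-fold higher for 3 of 6, with a median of 1.44-fold. These 3 had few reads there (Krt19 1.085, Krt7 0.6718 and Epcam 1.292 CPM). Sox9 stood at 0.988-fold, Spp1 at 1.23-fold and Pkhd1 at 0.79-fold. The cholangiocyte sum of 34.26 CPM lay inside the range of the other casein MR libraries, 25.96 to 49.34. Liver endothelial markers had a median of 1.09-fold, hepatocyte markers 0.966-fold and MHC class II and dendritic cell markers 0.819-fold. The part of red cell, stellate cell or cholangiocyte RNA in the marker levels was not tested.

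**Figure D3:**
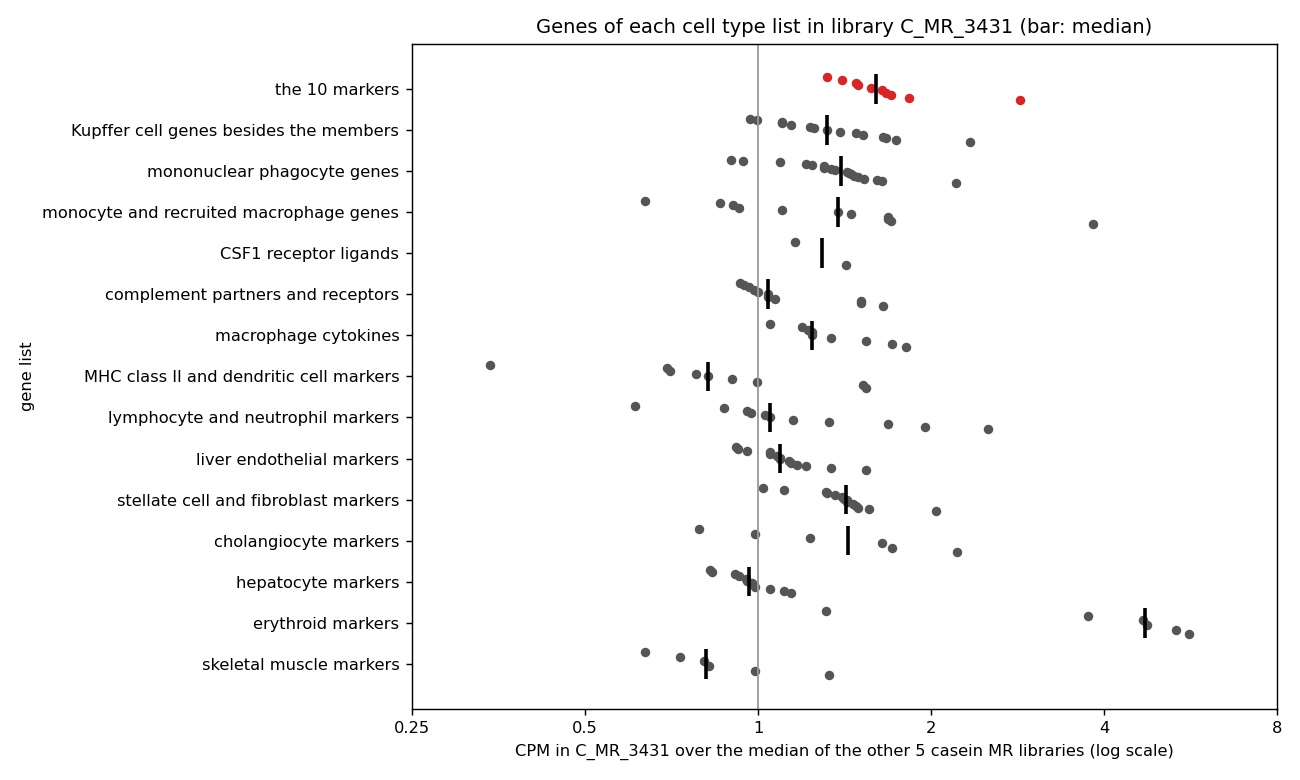
Genes of each cell type list (y axis) by their CPM in C_MR_3431 over the median of the other 5 casein MR libraries (x axis, log scale), 1 point per gene, with the list's median as a black bar and the 10 markers in red. The markers lie from 1.32 to 2.85, erythroid markers have the highest median (4.7) and hepatocyte markers lie around 1.

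Low libraries were also shared among the markers. E_MR_3403 was the lowest of 24 for 5 of the 10 markers (Vsig4, Cd5l, Adgre1, C1qa and Csf1r) and C_C_3413 for the other 5. The share of all genes that were lowest in these libraries was not counted, so a trait of the markers cannot be read from this. The marker sums of E_MR_3403 and C_C_3413 were 398.7 and 401.5 CPM, against 867.7 in C_MR_3431, 690.2 in E_C_3417 and 683.8 in C_C_3436. C_MR_3438, whose 6 skeletal muscle markers summed to 1382 CPM against at most 23.72 in the control and elemental groups, had a marker sum of 578 CPM and ranked 10 of 24. Log2 CPM values centred on their group means correlated positively in all 45 pairs of markers over the 24 libraries, with Pearson's r from 0.559 to 0.934 and a median of 0.764. Without C_MR_3431 r ran from 0.445 to 0.916, with a median of 0.723. The points share libraries and their scaling, so r is a description. The C1q chains had r from 0.897 to 0.926 with one another, or 0.873 to 0.916 without C_MR_3431. Marco's pairs were looser, from 0.559 to 0.737. The ratio of C1qb to C1qa varied between libraries with a CV of 7.17%, that of Vsig4 to Clec4f with 10.3%, that of Cd5l to Clec4f with 17.7% and that of Marco to Clec4f with 57.8%.

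**Figure D4:**
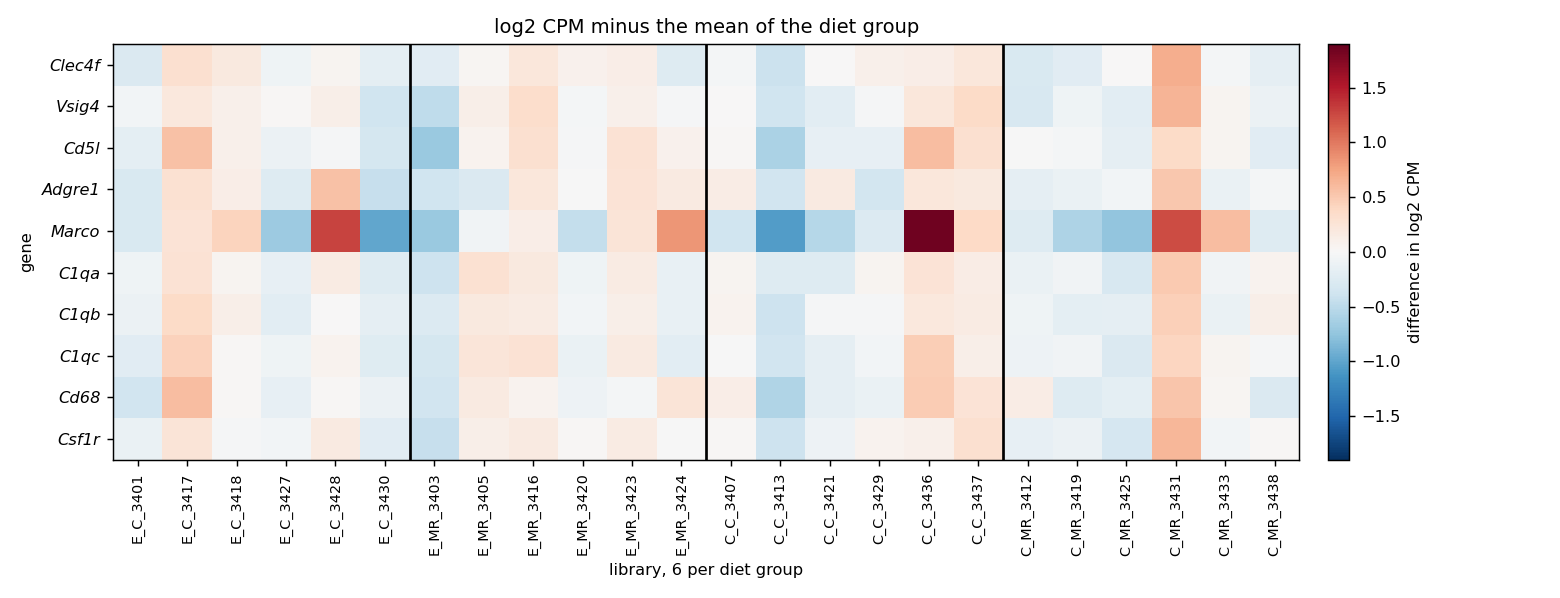
Log2 CPM of the 10 markers (y axis) minus the mean of the library's diet group, in the 24 libraries (x axis, 6 per group between black lines), red above and blue below the group mean. Whole columns share a colour, red in C_MR_3431, E_C_3417 and C_C_3436 and blue in E_MR_3403 and C_C_3413, and Marco spans the widest range.

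Among 10062 other genes with a mean log2 CPM of at least 1, those whose group-centred levels followed the markers' mean most closely over the 24 libraries were Cfp (r = 0.932, rho = 0.925) and Cd44 (r = 0.904, rho = 0.895). Cfp encodes properdin, a stabiliser of the alternative complement pathway made by myeloid cells, and Cd44 a hyaluronan receptor of leukocytes. They stayed in these places without C_MR_3431 (r = 0.921 and 0.907), and with C_C_3436 left out as well their r was 0.9 and 0.888. Fcer1g (0.87) and Tyrobp (0.842), which encode signalling adaptors of myeloid receptors, Fcgr1 (0.851), an IgG receptor, Adgre4 (0.85), Folr2 (0.837), Sdc3 (0.829), Laptm5 (0.818) and Cybb (0.812), the catalytic subunit of the phagocyte oxidase, completed the top 10. Of these 10 genes, 5 were also in the top 10 without C_MR_3431 and 7 in the top 10 by Spearman's rho. An r above 0.5 was reached by 16 of 18 mononuclear phagocyte genes and 11 of 15 further Kupffer cell genes, against 2.42% of all genes tested. It was reached by 1 of 11 monocyte and recruited macrophage genes, 2 of 9 macrophage cytokines, 0 of 9 MHC class II and dendritic cell markers, 0 of 14 endothelial, 0 of 14 stellate and 0 of 12 hepatocyte markers. Without C_MR_3431 the counts were 15 of 18 phagocyte and 9 of 15 Kupffer cell genes, against 3.11% of all genes. They were then 1 of 11 monocyte genes, 2 of 9 cytokines, 5 of 9 MHC class II and dendritic cell markers, 1 of 14 endothelial and 0 of 14 stellate and 0 of 12 hepatocyte markers.

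Some other Kupffer cell genes were called under restriction. With free amino acids 2 of 15 rose and 0 fell, and with casein 3 rose and 1 fell. These shares were close to the 13.4% and 23.3% of all genes called in the same edgeR comparisons. Slc40a1, the iron exporter ferroportin, which other liver cells also make, ranged from 70.38 to 100.8 CPM in elemental control and from 124 to 174.8 in elemental MR, without overlap. In casein control it ranged from 83.26 to 105.2 and in casein MR from 104.8 to 169.1. Slc40a1 rose by 0.84 ± 0.11 log2 with free amino acids (edgeR adjusted p = 3.77e-06) and by 0.63 ± 0.11 with casein (4.75e-05). Hpgd, a prostaglandin-degrading enzyme, rose by 0.34 ± 0.11 and 0.47 ± 0.11. With casein the scavenger receptor Msr1 rose by 0.28 ± 0.09, and Nr1h3, which encodes LXR alpha and is also expressed by hepatocytes, fell by 0.22 ± 0.06. These 4 were also the ones called with casein without C_MR_3431. Over the 24 libraries their r with the markers' mean was 0.579 for Slc40a1, 0.556 for Msr1, 0.23 for Nr1h3 and -0.093 for Hpgd.

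Of 11 tested monocyte and recruited macrophage genes, 0 rose and 1 fell with free amino acids, and 2 rose and 2 fell with casein. These comparisons called 13.4% and 23.3% of all genes. The fatty acid carrier Fabp5 fell with free amino acids by 2.20 ± 0.51. With casein Fabp5 fell by 2.63 ± 0.49 and the chemokine receptor Cx3cr1 by 1.42 ± 0.34, while Lpl, lipoprotein lipase, rose by 2.14 ± 0.21 and the tetraspanin Cd9 by 0.85 ± 0.14. Their r with the markers' mean over the 24 libraries was -0.391 for Fabp5, -0.181 for Cx3cr1, 0.094 for Lpl and 0.084 for Cd9. Cx3cr1 had few reads, with a median of 1.227 CPM in the casein MR libraries besides C_MR_3431. Which liver cells these changes came from was not tested. The other genes of the list, Ccr2 and Ly6c2 among them, were not called in either comparison. The effects on Lpl and Cd9 differed between protein sources (2.08 ± 0.30 and 0.75 ± 0.20, edgeR adjusted p = 0.000151 and 0.0381). Without C_MR_3431 the difference for Lpl was 2.11 ± 0.30 (0.000212) and that for Cd9 0.74 ± 0.20, past the threshold no longer (edgeR adjusted p = 0.0558). The ligands of the CSF1 receptor, Csf1 and Il34, were not called in any of the 5 comparisons, with medians of 5.585 to 7.277 CPM for Csf1 and 2.417 to 2.871 for Il34. Of 9 cytokine genes tested, Il18 fell by 0.51 ± 0.12 with free amino acids and by 0.48 ± 0.12 with casein. Il1rn, the antagonist of the interleukin-1 receptor, ranged from 3.595 to 10.14 CPM in casein control and from 10.64 to 14.95 in casein MR, and rose by 1.28 ± 0.22 (edgeR adjusted p = 6.82e-05). Among markers of other cells with casein, 11 of 12 hepatocyte markers fell, with a median of -0.64, and 1 of 14 endothelial markers (Stab2) fell, in the comparison that called 23.3% of all genes. Of 6 cholangiocyte markers 3 fell (median -0.77), and of 14 stellate cell and fibroblast markers 1, Des, rose. In the casein MR libraries besides C_MR_3431 Des had a median of 3.213 CPM and a highest value of 46.19. Without C_MR_3431 Des was still called higher, and 3 of the 14 (Col3a1, Colec11 and Reln) were called lower, where 21.7% of all genes were called. All 6 skeletal muscle markers were called higher (median 4.53). The muscle sums of casein MR had a median of 7.738 CPM, below the 8.364 of casein control, and reached 1382 CPM in C_MR_3438. The part of these markers of other cells in the share of reads left to macrophage genes was not tested.

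Several complement genes that hepatocytes make, and whose products act with or after C1q, fell under restriction. With casein 6 of 11 complement partners and receptors fell and 0 rose, where 23.3% of all genes were called in either direction. C1s1, a protease subunit that binds C1q, ranged from 243.5 to 277.9 CPM in casein control and from 131.4 to 139.5 in casein MR, and fell by 0.93 ± 0.06 (edgeR adjusted p = 4.08e-12). C4b, cleaved by that protease, ranged from 425.5 to 497.7 CPM in casein control and from 212.6 to 252.7 in casein MR, and fell by 0.92 ± 0.07. C2 fell by 0.71 ± 0.11 and C1ra by 0.44 ± 0.07. C1s1 and C4b also fell with free amino acids, by 0.40 ± 0.06 and 0.49 ± 0.07, while C3 rose by 0.36 ± 0.10. The fall was larger with casein for C1s1, C4b, C2 and C1ra, by 0.54 ± 0.08, 0.43 ± 0.10, 0.64 ± 0.15 and 0.39 ± 0.09 in the test of the difference. C1qa, C1qb and C1qc had casein values of 0.28 ± 0.12, 0.17 ± 0.11 and 0.13 ± 0.13 and were not called. Cfp, which myeloid cells make, was not called either, at -0.15 ± 0.14 with free amino acids and 0.15 ± 0.14 with casein. The receptors of the list, C3ar1, C5ar1 and Cd93, were also not called with free amino acids or with casein. The difference between the C1q chains and their partners was not tested as such.

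**Figure D5:**
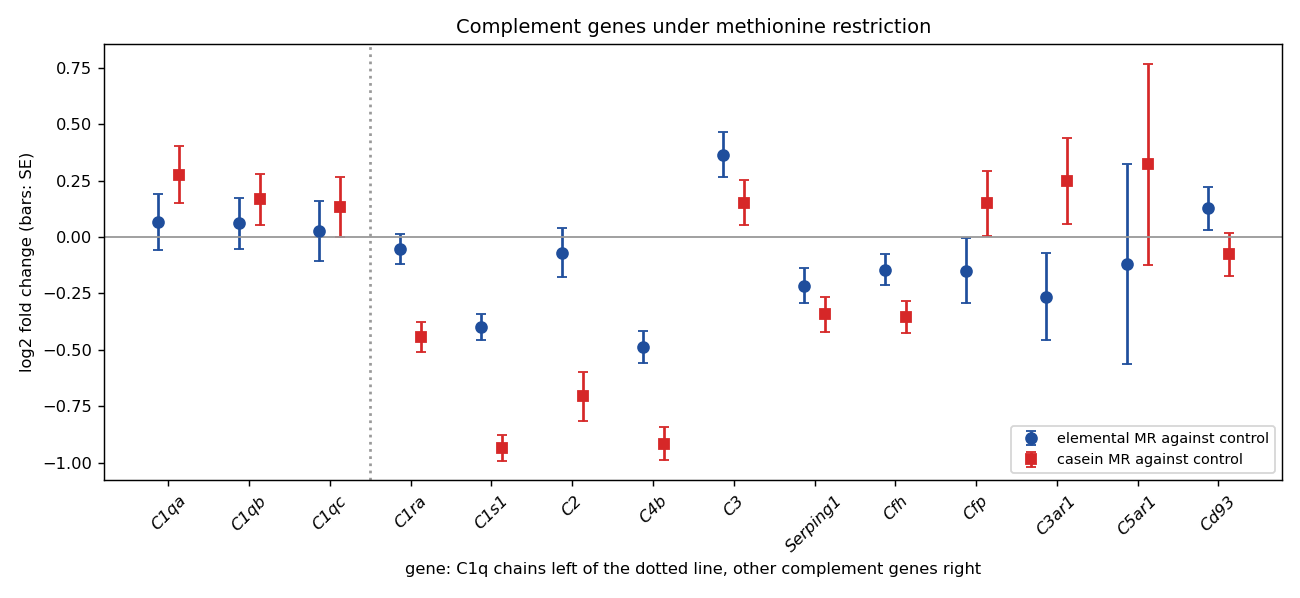
Log2 fold change (y axis, bars are SE) of complement genes (x axis) for MR against control with elemental amino acids (blue circles) and casein (red squares), with the C1q chains left of the dotted line. The C1q values lie between 0.03 and 0.28, while C1s1 and C4b fall by 0.93 and 0.92 with casein.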

How the data were processed

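RNA levels were measured in 24 liver libraries, in 4 groups of 6 taken from the labels. The authors deposited read counts as whole numbers per gene and library, and a normalized signal, checked to be the counts divided by 1 size factor per library (0.745 to 1.32). Only the counts entered the tests. The sources used here do not give the aligner, counting tool, genome build or strand, so reads of overlapping or antisense genes cannot be told apart. Every gene in the table has at least 72 reads in all. The deposited table named 13002 genes and a reference annotation another 2119, leaving 40 without a symbol.

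In R 4.3.3, edgeR 4.0.16 removed low genes (filterByExpr by group, 99.93% of reads kept), scaled libraries by TMM and fitted 1 quasi-likelihood model to all libraries. Genes with a Benjamini-Hochberg adjusted p under 0.05 over all genes were called. Standard errors come from the fold change and its F statistic, and intervals are at 95%. A prior count of 2 enters log2 CPM. The code was tested on simulated counts.

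The members and lists were chosen with earlier results of these data known. The rule for named genes took the members, at most 4 genes by smallest p of each other list in a comparison described, and the 10 genes most like the members. Alternatives were other scalings and filters, a robust prior, an adjusted p under 0.01, DESeq2 1.42.0, limma-voom (limma 3.58.1), the compared groups alone and leaving out each library. There were 0 identical library pairs, and 0 columns were left unused. The result of 1 gene of the lists is not reported here.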

Additional observations from a re-analysis of the deposited data

Results flagged for a closer look

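Of 40 sets of 6 libraries (10 markers in 4 groups), 7 held a library farther from the nearest of the others than Dixon's 95% limit allows. The limit's rate of about 1 in 20 is for independent, normally distributed values. These sets share libraries and their distribution was not tested, so the count of 7 is a description and no test. C_MR_3431 was apart on the high side in casein MR for Clec4f (107 CPM), Vsig4 (70 CPM), Adgre1 (25.4 CPM) and Csf1r (168 CPM), and for the sum of the 10 markers (868 CPM). These are not separate observations, since the markers vary together, and the library was already known to stand out when the markers were chosen. C_C_3436 was apart in casein control for Marco, at 23.2 CPM. E_C_3417 was apart in elemental control for Cd68, at 18.6 CPM. E_MR_3403 was apart on the low side in elemental MR for Csf1r, at 72.1 CPM.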

How the results depend on the processing

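No paired analysis was possible because each library carries its own number. Of the 10 markers, 0 were called in any of the 5 comparisons under every alternative run and with any library left out, the lowest adjusted p being 0.0609 by edgeR (casein MR without C_C_3436). Outside the leave-out fits all 440 marker values kept their sign, and the casein median ran from 0.15 to 0.16. Genes called at an adjusted p under 0.01 were 974 for elemental MR, 153 for the interaction, 3 between control diets and 450 between MR diets. Between control diets 89 genes were called by DESeq2, 3 by limma-voom and 7 in a fit of those groups alone, and 5 to 33 with 1 library left out. Of 1200 leave-out values, 38 changed sign, with 0 called. With 1 library left out, the markers' median ran from -0.1 to 0.032 for elemental MR, 0.026 to 0.241 for casein MR and -0.054 to 0.063 between control diets. In log2 and with 1 library left out, elemental MR values ran from -0.029 to 0.126 for C1qc, -0.001 to 0.195 for Cd5l, -0.156 to 0.059 for Cd68, -0.087 to 0.029 for Csf1r, -0.581 to 0.01 for Marco and -0.148 to 0.004 for Vsig4. Casein MR values ran from -0.079 to 0.164 for Cd68, -0.015 to 0.217 for Csf1r, -0.2 to 0.827 for Marco and -0.063 to 0.19 for Vsig4. The difference of the effects ran from -0.083 to 0.197 for Cd5l and -0.013 to 0.251 for Cd68. Control diet values ran from -0.021 to 0.095 for C1qa, -0.055 to 0.154 for C1qc, -0.053 to 0.202 for Cd68, -0.088 to 0.047 for Csf1r, -0.809 to 0.229 for Marco and -0.117 to 0.031 for Vsig4. MR diet values ran from -0.069 to 0.165 for Clec4f and -0.021 to 0.211 for Vsig4. Of the 10 genes most like the markers, 5 remained in the top 10 without C_MR_3431. Marco rests on 37 to 367 reads per library, the fewest of the markers.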

Other observations

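Between the MR diets a few genes of other immune lists were higher with casein. That comparison called 0 of the 10 markers and 6.5% of all genes. Called higher were 1 of 18 mononuclear phagocyte genes, 1 of 9 MHC class II and dendritic cell markers and 1 of 9 cytokine genes. Of 11 monocyte and recruited macrophage genes 2 were called, Lpl and Cd9. Fcgr4, an IgG receptor of phagocytes, ranged from 5.641 to 8.916 CPM in elemental MR and from 9.639 to 12.7 in casein MR, without overlap. It was higher by 0.65 ± 0.17 log2 (edgeR adjusted p = 0.0187), and by 0.61 ± 0.18 without C_MR_3431 (0.0402). H2-Ab1, an MHC class II chain of antigen-presenting cells, ranged from 28.14 to 57.08 CPM in elemental MR and from 49.38 to 106 in casein MR. It was higher by 0.91 ± 0.27 (edgeR adjusted p = 0.0442), and it was the only 1 called of 9 MHC class II and dendritic cell markers tested. Il1rn was higher by 0.84 ± 0.21 (edgeR adjusted p = 0.0148), and by 0.82 ± 0.23 without C_MR_3431 (0.0284). Fcgr4, H2-Ab1 and Il1rn were not called in the test of the difference between the MR effects. Between the MR diets, protein source and the oxidation of casein cannot be told apart.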
